A study of Arabidopsis thaliana with 4 samples.

Results

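The 40 loci described here carry the core of the abscisic acid (ABA) pathway of Arabidopsis, from synthesis of the hormone to a gene that responds to it. They comprise 10 *PYR/PYL* receptor genes, 9 genes for clade A protein phosphatases 2C (PP2C), 3 *SnRK2* kinase genes, 7 transcription factor genes (*ABI3*, *ABI4*, *ABI5* and 4 *ABF* genes), 6 synthesis genes (4 *NCED* genes, *ABA1* and *ABA2*), the 4 *CYP707A* breakdown genes and *RD22*. The loci were defined by their function, out of 27444 protein-coding genes with an annotated coding sequence, but with earlier results of these data known. A binding site of any score was assigned to a locus if its maximum fell in a window that began 3000 bp before the start codon and ended 1000 bp past the stop codon. In these windows 21 of the 2831 listed sites were found.

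The sites come from chromatin immunoprecipitation followed by sequencing (ChIP-seq) of FRUITFULL (FUL), a MADS domain transcription factor of fruit and inflorescence development. Pistils and siliques of stages 12 to 16 were taken from *ful-1* plants of mixed Col/Ler ecotype that carried FUL fused to green fluorescent protein (GFP) under the *FUL* promoter (*pFUL:FUL-GFP ful-1*), so that binding was sampled where this promoter was active. A GFP antibody was used for 2 ChIP replicates, and 2 input samples of the same genotype, tissue and stages, without antibody, served as controls. The plants had no treatment and grew at 22 °C in long days, and no tissue marker could be checked because the list holds no expression values.

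The list gives for each site a start, an end, a maximum and 1 score, taken here as its enrichment over the input. A note in the supplement of the study says that the values of its target list are means of both replicates, corrected with the input. The deposited scores are taken to be of the same kind, and no value per replicate is given. The list therefore holds no spread between replicates and no read depth, and none of the differences between scores below has a replicate check or a test. Scores ran from 2.99 to 1071.13 with a median of 4.43, and only 234 different values occurred, so that many sites are tied. The most common score, 3.4, was shared by 689 sites. A stricter limit of 5.6, reached by 846 sites (29.9%), is given beside the full list. The study limited its own target set by a false discovery rate, and that set is smaller than both the full list and the sites at this stricter limit. Positions are those of TAIR9, and genes are those of the TAIR10.1 annotation of RefSeq.

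As background, ABA is made by cleavage of epoxycarotenoids and is removed by hydroxylation. Bound to ABA, the PYR/PYL proteins inhibit the clade A phosphatases, which otherwise keep the SnRK2 kinases inactive. The released kinases phosphorylate bZIP factors such as ABI5 and the ABFs, which bind the ABA-responsive element (ABRE) in the promoters of target genes. In the fruit, ABA is best known for seed maturation and dormancy, and in the whole plant for the response to drought.

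The sequences below show the sites with the highest scores among the 40 loci (*ABF3*, *CYP707A2* and *ABF4*), the *HAI2* site closest to its start codon, and the strong site that lies outside the window of *RD22*. The last 3 of these were chosen after their values had been seen. Each runs 5′ to 3′ on the forward strand of the RefSeq TAIR10.1 sequence, 100 bp to each side of the maximum, except that *CYP707A2* is shortened on its left side. In *ABF3*, *ABF4* and *RD22* capitals mark sequences with at most 1 mismatch to the CArG box, the motif that MADS domain proteins bind, which reads CC, then 6 bases that are each A or T, then GG. The shorter run of capitals in *ABF3* and all capitals in *HAI2* mark the ABRE core ACGTG on either strand. In *CYP707A2* capitals mark the bases that are coding in every annotated transcript.
ABF3, chr4:16295110-16295310: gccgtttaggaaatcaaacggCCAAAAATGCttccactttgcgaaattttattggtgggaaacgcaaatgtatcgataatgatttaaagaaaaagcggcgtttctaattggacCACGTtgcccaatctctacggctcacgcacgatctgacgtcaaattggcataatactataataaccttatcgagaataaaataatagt
CYP707A2, chr2:12496875-12497042: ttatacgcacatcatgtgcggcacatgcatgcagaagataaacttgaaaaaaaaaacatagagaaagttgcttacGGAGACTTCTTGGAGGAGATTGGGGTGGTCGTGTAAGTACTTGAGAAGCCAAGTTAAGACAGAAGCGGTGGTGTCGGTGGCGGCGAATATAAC
ABF4, chr3:6685914-6686114: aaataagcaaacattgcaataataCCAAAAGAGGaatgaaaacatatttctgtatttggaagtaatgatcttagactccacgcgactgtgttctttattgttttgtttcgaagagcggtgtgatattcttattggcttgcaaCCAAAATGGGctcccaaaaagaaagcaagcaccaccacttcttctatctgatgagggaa
HAI2, chr1:2282937-2283137: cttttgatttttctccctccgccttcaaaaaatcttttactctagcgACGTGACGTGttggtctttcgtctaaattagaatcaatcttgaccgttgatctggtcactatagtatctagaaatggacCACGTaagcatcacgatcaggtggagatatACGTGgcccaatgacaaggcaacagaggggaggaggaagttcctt
RD22, outside its window, chr5:8920790-8920990: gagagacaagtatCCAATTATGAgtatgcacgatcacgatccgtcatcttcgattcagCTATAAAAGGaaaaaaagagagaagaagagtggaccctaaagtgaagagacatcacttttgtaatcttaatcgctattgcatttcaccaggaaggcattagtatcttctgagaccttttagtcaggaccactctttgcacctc

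FUL sites were found at 15 of the 40 ABA loci (37.5%), where 14.0% of all protein-coding genes had a site by the same rule. With a score of at least 5.6, 9 loci remained (22.5%), against 4.47% of all protein-coding genes. At any score, the loci with a site were 4 phosphatase, 4 transcription factor, 3 breakdown and 2 receptor genes, 1 synthesis gene and *RD22*. At 5.6 they were 3 phosphatase, 3 transcription factor and 2 receptor genes and 1 breakdown gene. The kinase genes had none. Since a longer window can hold more sites, the lengths were compared too. The windows of the 40 loci had a median length of 5752 bp, against 5568 bp over all protein-coding genes. Per 100 kb of window, the 40 loci had 9.28 sites and all protein-coding genes 2.81, or 4.42 and 0.811 with a score of at least 5.6. At the median score of the list, 4.43, the count was also 9 loci (7.97% of all protein-coding genes), and at the upper quartile, 6.81, it was 8 loci (3.94%). When a site counted only for its nearest coding gene, 13 of the 40 loci had one (8.21% of all protein-coding genes). These shares are descriptions without a test, for loci that were chosen with earlier results of these data known.

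The 21 sites had a median score of 4.43, equal to that of the whole list, and 10 of them reached 5.6. When each locus was represented by its highest score, the median was 6.81 over the 15 loci and 4.43 over the 3830 protein-coding genes with a site. Among loci at or above 5.6 this order turned, with 8.20 over 9 loci and 8.91 over 1227 genes. The highest score, 12.59, occurred at *ABF3* and at *CYP707A2*. It is shared by 41 sites of the list, which together take rank 233.

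**Figure D1:**
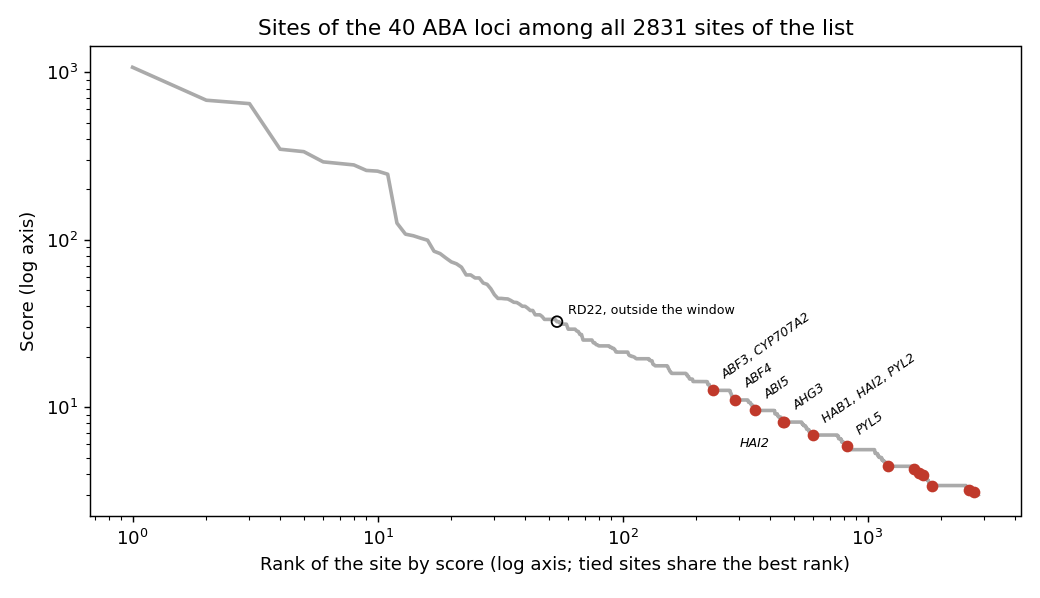
Score of each of the 2831 sites of the list (grey line, both axes logarithmic) against its rank, with the 21 sites of the ABA loci as red points. The red points begin at rank 233 with a score of 12.59, and the open circle marks the site of 32.39 that lies outside the window of RD22.

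**Figure D2:**
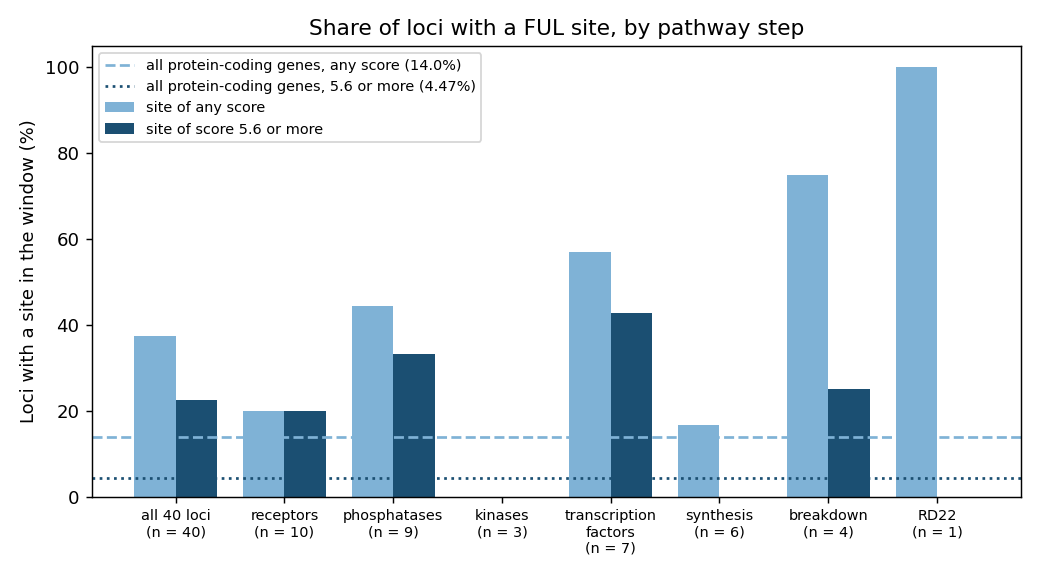
Percentage of loci with a site of any score (light bars) and of 5.6 or more (dark bars) for all 40 loci and for each pathway step, with the number of loci under each bar. Dashed and dotted lines give the same percentages over all protein-coding genes, 14.0% and 4.47%, and the bars of the kinases are at 0.

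Among the receptors, 2 of 10 genes had a site, beside 14.0% of all protein-coding genes, and both sites lay upstream of the gene and above 5.6, a level found at 4.47% of all protein-coding genes. *PYL2* (AT2G26040, chromosome 2 from 11094258 to 11095542) had a site from 11096371 to 11096608 with a score of 6.81, whose maximum lay 1056 bp before the start codon. *PYL5* (AT5G05440, chromosome 5 from 1608988 to 1610527) had a site from 1608376 to 1608620 with a score of 5.85 and its maximum 925 bp before the start codon. The *PYL5* site also fell in the window of the coding gene AT5G05430, 1737 bp upstream of that start codon, but *PYL5* was nearer. *PYL2* was the only gene in reach of its site. Their scores rank 598 and 824, and 155 sites of the list share the score of *PYL2*.

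The windows of *PYR1*, *PYL1*, *PYL3*, *PYL4*, *PYL6*, *PYL7*, *PYL8* and *PYL9* held no listed site. *PYL4* came closest, with a site of score 3.4 only 379 bp beyond the downstream end of its window, 1379 bp after the stop codon. For *PYL9* and *PYL6* the nearest listed sites lay 2349 and 3727 bp beyond the window, and for *PYL8* 71393 bp. The list begins at 2.99, and weaker enrichment is not detectable in it.

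The clade A phosphatases, which hold the pathway off when ABA is absent, had sites at 4 of 9 genes (44.4%, beside 14.0% of all protein-coding genes). With a score of at least 5.6 it was 3 genes (33.3%, beside 4.47%). The phosphatase genes carried 8 of the 21 sites. *HAI2* (AT1G07430, chromosome 1 from 2280746 to 2282828), named for its strong induction by ABA, alone had 4 sites. They scored 8.14, 6.81, 4.43 and 4.05. The site of 8.14 had its maximum 306 bp downstream of the stop codon, within the transcribed region, and spanned 2280724 to 2281080. The site of 6.81 lay furthest upstream, 1741 bp from the start codon, at 2284348 to 2284425. The site of 4.43 peaked 381 bp before the start codon, or 209 bp before the transcript start, and that of 4.05 lay in the coding exon, 242 bp before the stop codon. The 4 maxima were spread over 3552 bp, 2 upstream of the gene and 2 inside its transcribed region, and the closest neighbours were 548 bp apart. At least 4 sites, a limit taken from *HAI2* itself, were found at 26 of the 27444 protein-coding genes (0.0947%). The *HAI2* sites of 4.43 and 4.05 did not exceed the median score of the list, 4.43. *HAI2* was the nearest coding gene to each of its sites.

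*AHG3* (AT3G11410, also called *PP2CA*, chromosome 3 from 3583782 to 3585850) encodes a phosphatase that restrains ABA signalling in seeds and guard cells. Its larger site, with a score of 8.2, lay in a coding exon from 3584379 to 3584661, 280 bp before the stop codon. Its smaller site, with a score of 3.4, lay in the untranslated leader, 181 bp before the start codon but 20 bp into the transcript. *HAB1* (AT1G72770, chromosome 1 from 27389948 to 27393327) had 1 site, from 27393386 to 27393503, with a score of 6.81. Its maximum lay 535 bp downstream of the stop codon and past the end of the transcript, 1 bp from the annotated start of the tRNA gene AT1G72780. The site also fell in the window of the coding gene AT1G72790, 1462 bp upstream of that start codon, but *HAB1* was nearer. The study lists a score of 6.81 at AT1G72780 and AT1G72790 and does not list *HAB1*. *ABI1* (AT4G26080, chromosome 4 from 13219915 to 13222376), the phosphatase gene in which the classic ABA-insensitive mutant was found, had a site of score 3.4 with its maximum 2371 bp before the start codon. The same site lay 397 bp before that of the disease resistance gene *RPS2*, which was nearer. *AHG3*, *HAI2* and *HAB1*, the 3 genes that reached 5.6, had their highest score within 535 bp of the stop codon. At *HAB1* this was past the end of the transcript. The distance of 535 bp was read from these same sites. The share of all protein-coding genes with a site this close to the stop codon was not computed.

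*ABI2*, *HAB2*, *AHG1*, *HAI1* and *HAI3* had no site in their windows, and their nearest listed sites lay between 10545 bp (*ABI2*) and 65131 bp (*AHG1*) beyond them. The kinase genes *SnRK2.2*, *SnRK2.3* and *SnRK2.6* (*OST1*), whose products act directly below the phosphatases, had no site either. The distances beyond the window were 11572, 5131 and 19553 bp. Since 14.0% of all protein-coding genes had a site, its absence at 3 kinase genes says little about this step.

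**Figure D3:**
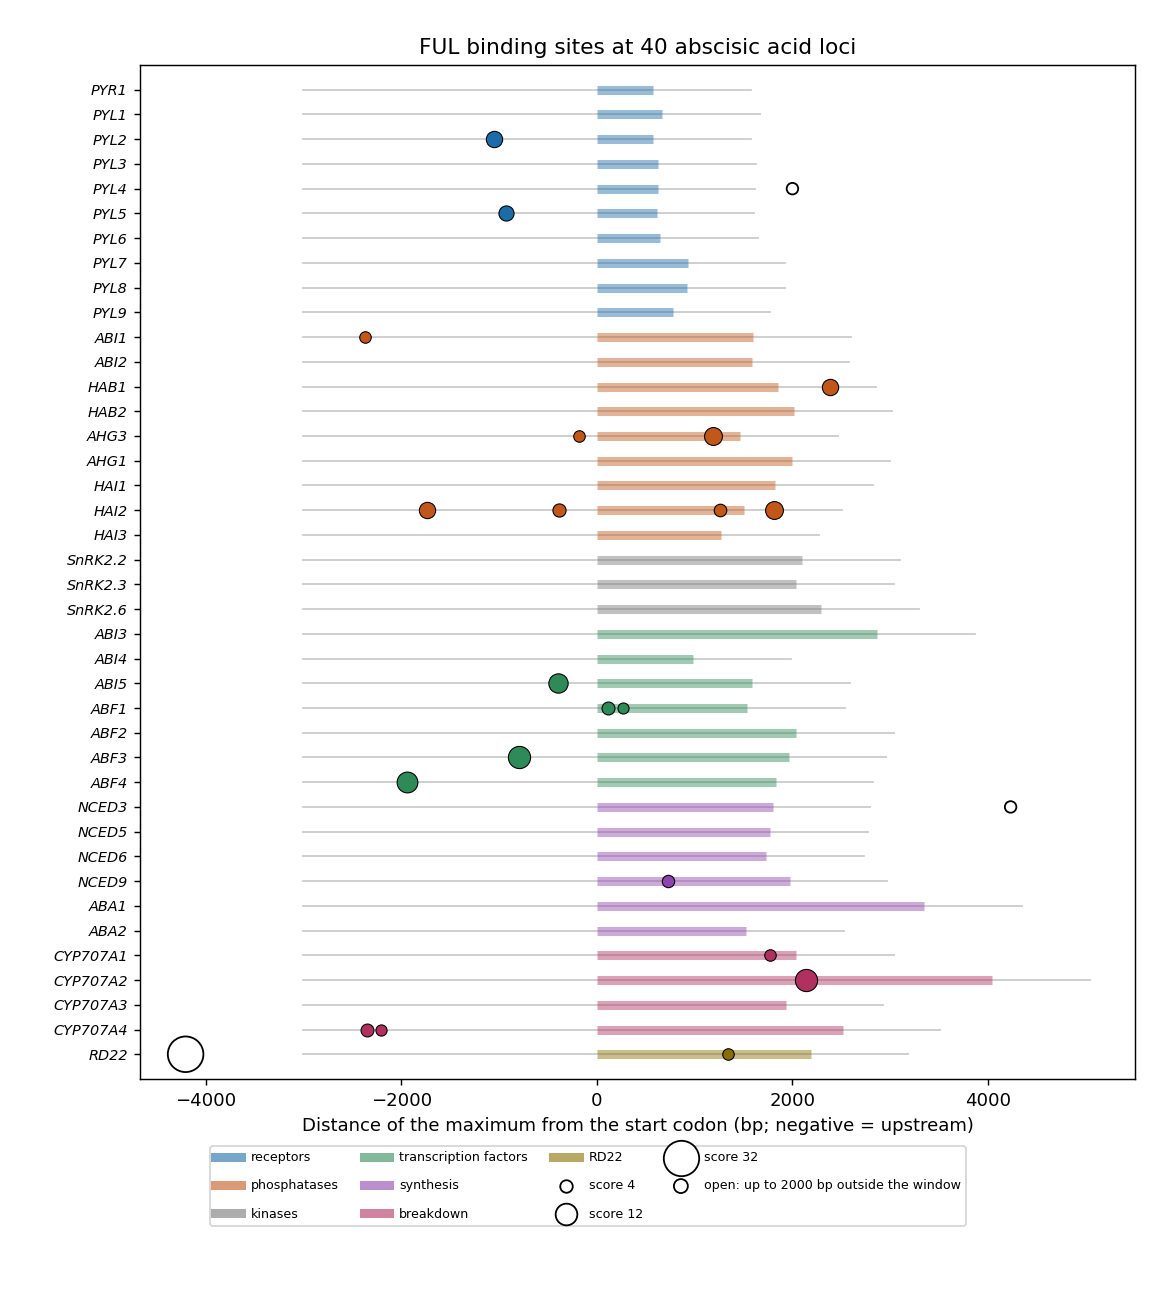
Position of each site along the 40 loci, in bp from the start codon to the maximum, with the window as a thin line, the span from start to stop codon as a thick bar and the area of each point proportional to the score. Filled points are the 21 sites inside the windows, 4 of them at HAI2, and open points are sites up to 2000 bp outside, among which that of RD22 has a score of 32.39.

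The transcription factors had sites at 4 of 7 genes (57.1%, beside 14.0% of all protein-coding genes). Above 5.6 it was 3 genes (42.9%, beside 4.47%), and these 3 held 3 of the 4 highest scores of the pathway. All 3 sites lay upstream of the start codon. *ABF3* (AT4G34000, chromosome 4 from 16295334 to 16298285), an ABRE-binding factor of the drought response, had a site from 16295069 to 16295427 with a score of 12.59, rank 233. The maximum lay 798 bp before the start codon and 124 bp before the transcript start, so that the 358 bp of this site, the longest of the 21, crossed the transcript start. *ABF4* (AT3G19290, chromosome 3 from 6687042 to 6690123), a close relative with the same kind of function, had a site from 6685874 to 6686140 with a score of 11.03, rank 288. Its maximum lay 1942 bp before the start codon and 1028 bp before the transcript start. The site was also within reach of *FUT11*, 2213 bp upstream of that start codon, and of a long non-coding RNA gene.

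*ABI5* (AT2G36270, chromosome 2 from 15204659 to 15207636), a bZIP factor that holds back seed germination, had a site from 15206905 to 15207151 with a score of 9.55, rank 347. The maximum lay 395 bp before the start codon but 670 bp downstream of the transcript start. It fell in an intron of the leader in 2 of the 3 annotated transcripts. *ABF1* (AT1G49720, chromosome 1 from 18400003 to 18402628) had 2 weak sites with scores of 4.27 and 3.13, both in the coding exon, 111 and 272 bp downstream of the start codon and 161 bp apart. The windows of *ABI3*, *ABI4* and *ABF2* held no listed site, and the nearest lay 18428, 12830 and 35558 bp beyond them. ABI3 and ABI4, a B3 and an AP2 domain factor, are the members of this step that are not bZIP factors.

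Of the synthesis genes 1 of the 6 in this set had a site (16.7%, beside 14.0% of all protein-coding genes), and none reached 5.6. The synthesis genes *NCED2*, *AAO3*, *ABA3* and *ABA4*, which are not among the 40 loci, had none. *NCED9* (AT1G78390, chromosome 1 from 29490705 to 29492875), 1 of the dioxygenase genes for the rate-limiting cleavage step and known from seeds, had a site of score 3.91 from 29492052 to 29492172, in its coding exon 731 bp downstream of the start codon. *NCED3*, the dioxygenase gene best known from drought, had none in its window, and the nearest site, with a score of 3.4, lay 1435 bp beyond it on the downstream side. *NCED5*, *NCED6*, *ABA1* (zeaxanthin epoxidase) and *ABA2* (xanthoxin dehydrogenase) had none, and for *ABA2* the nearest site of the list was 178478 bp beyond the window, the largest distance among the 40 loci.

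Of the breakdown genes, which encode hydroxylases that inactivate ABA, 3 of 4 had a site, beside 14.0% of all protein-coding genes. With a score of at least 5.6 it was 1 gene, beside 4.47%. When a site counted only for its nearest coding gene, it was 2 genes, beside 8.21%. *CYP707A2* (AT2G29090, chromosome 2 from 12494826 to 12499723), known for the fall of ABA in imbibed seeds, had the only breakdown site above 5.6. It spanned 12496759 to 12497037 with a score of 12.59, and its maximum lay inside the gene, 2138 bp downstream of the outermost start codon and 1904 bp before the stop codon. The position was intronic in 3 of the 4 annotated transcripts and coding in the other one, and *CYP707A2* was the only gene in reach. *CYP707A1* (AT4G19230, chromosome 4) had a site of score 3.4 in a coding exon, 268 bp before its stop codon. *CYP707A4* (AT3G19270, chromosome 3) had sites of 4.27 and 3.19 that lay 149 bp apart, 2353 and 2204 bp upstream of the start codon. Both were nearer to the coding gene AT3G19274, the stronger one 34 bp downstream of its start codon and the weaker one 115 bp upstream of it. *CYP707A3* had no site in its window, but a site of 12.59 was listed 7977 bp upstream of its start codon. Whether another gene lay nearer to that site was not examined.

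*RD22* (AT5G25610, chromosome 5 from 8914122 to 8916856), a gene induced by dehydration through ABA and used as a marker of the response, had 1 site in its window, with a score of 3.4, in an intron 1338 bp downstream of the start codon. A far stronger site lay just outside the limit. It spanned 8920703 to 8921046, with a score of 32.39 and rank 54, and its maximum was 4206 bp upstream of the start codon, 1206 bp beyond the window. *RD22* was the nearest coding gene to it, and its maximum lay 63 bp downstream of the start of the long non-coding RNA gene AT5G04025. Inside the limit, the sites furthest upstream were those of *ABI1* (2371 bp, score 3.4) and *CYP707A4* (2353 bp, score 4.27). A site of 19.45 was also listed 5934 bp upstream of *AHG3*, and 1 of 3.65 lay 5326 bp upstream of *ABI5*. Whether other genes lay nearer to the sites upstream of *AHG3* and *ABI5* was not examined. The scores of 32.39 and 19.45 exceed the highest ones inside the windows of *RD22* and *AHG3*, which are 3.4 and 8.2. The upstream site of *ABI5* scored lower than the site of 9.55 inside its window.

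**Figure D4:**
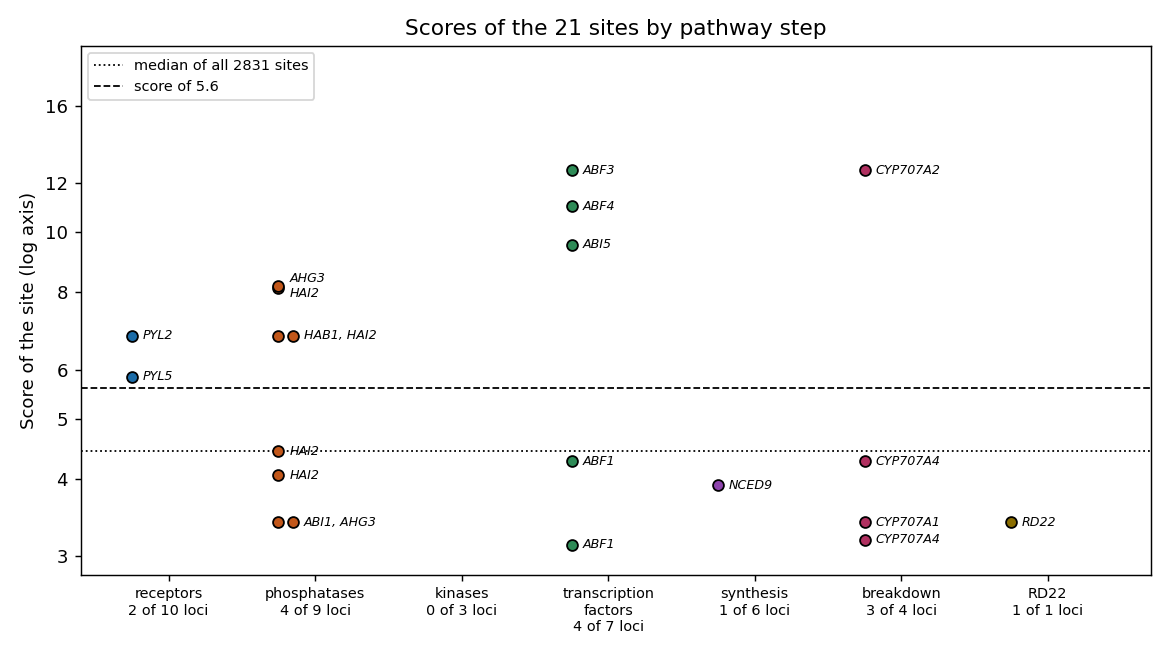
Score of each of the 21 sites (logarithmic axis) by pathway step, each point labelled with its gene, a dashed line at 5.6 and a dotted line at the median of all 2831 sites, 4.43. The sites of ABF3, ABF4, ABI5 and CYP707A2 stand highest, between 9.55 and 12.59, and no point is drawn for the kinases.

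Close relatives were compared for the presence of a site. Of 10 sets of related genes that were compared, 5 had sites at some members only, 4 had no site and 1, *ABF1* and *ABF4*, had a site at each member. With a site at 15 of the 40 loci (37.5%), unrelated genes would also often differ. Sets of unrelated genes were not compared, so these counts describe the sets only. *HAI2* had 4 sites and *HAI1* and *HAI3* none. *ABF3* had a site and *ABF2* none, *HAB1* had one and *HAB2* none, *ABI1* had one and *ABI2* none, and *CYP707A1* had one and *CYP707A3* none. The sets without a site were *PYR1* with *PYL1*, *PYL4* with *PYL6*, *PYL8* with *PYL9*, and *SnRK2.2* with *SnRK2.3*. The difference within a set rests on the presence of 1 listed site in most cases, at *ABI1* and *CYP707A1* with a score of 3.4.

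By position, 11 of the 21 sites (52.4%) lay upstream of the start codon, against 56.4% of the 4540 site-gene pairs formed by the whole list with protein-coding genes. Their median distance was 1056 bp, against 1253 bp. In coding exons lay 7 sites (33.3%, against 22.2% of all pairs), which include that of *CYP707A2*, and 2 lay downstream of the stop codon. Counted by locus, 9 of the 40 loci had a site upstream of the start codon (22.5%, against 8.35% of protein-coding genes) and 7 had a site between start and stop codon (17.5%, against 3.99%). The ABA gene was the nearest coding gene in 18 of the 21 cases (85.7%), against 56.8% of all pairs, and the 3 exceptions were the site of *ABI1* and both sites of *CYP707A4*. More than 1 site was found at 4 of the 40 loci, *HAI2*, *AHG3*, *ABF1* and *CYP707A4*, beside 2.07% of protein-coding genes. The sites at or above 5.6 were 77 to 358 bp long with a median of 256 bp, and the weaker ones were 10 to 180 bp long.

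None of the 21 sites had an exact CArG box within 100 bp of its maximum, a window of the same length for every site of the list. In the whole list 135 of 2831 sites had one (4.77%), and among the sites at or above 5.6 the share was 9.34%. With 1 mismatch allowed, 6 of the 21 sites had a match (28.6%), against 32.1% of all sites. Of the 10 sites at or above 5.6, 5 had such a match, against 42.4% of all sites of that strength. This order depended on the span searched. With the whole match within 50 bp of the maximum, 1 of the 10 had one, against 26.4%. Of the 21 sites it was then 2, against 19.3%. Within 250 bp it was 6 of the 10, against 63.6%. From the listed start to the end of the site it was also 6 of the 10, against 50.1%. Within 100 bp, *ABF4* had 2 matches, CCAAAAGAGG and CCAAAATGGG, 72 and 47 bp from the maximum. *ABI5* also had 2, of which CCAAAAGAGG is the same sequence as in *ABF4* and lay 59 bp from the maximum. The match of *ABF3*, CCAAAAATGC, lay 75 bp from the maximum. The other matches were at *PYL2*, *AHG3* and *ABI1*, and the *ABI1* match was the closest to a maximum, at 23 bp. The *CYP707A2* site had none. The strong site outside the window of *RD22* had no exact box but 2 sequences with 1 mismatch, shown above in capitals.

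Exact CArG boxes did occur in the upstream regions of the loci, though away from the sites. Within 3000 bp upstream of the start codon, 10 of the 40 loci had at least 1, beside 18.8% of all protein-coding genes. They were present at 4 of the 15 loci with a site and at 6 of the 25 without. At *ABI1*, the box lay 1176 bp before the start codon, 1195 bp away from the listed site, and at *PYL2* 1265 bp from the site. *CYP707A3* and *NCED6* had a box 183 and 319 bp before their start codons but no site in the window. A match is a description of the sequence and not of binding.

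The ABRE core ACGTG, searched on both strands, lay within 100 bp of the maximum of 11 of the 21 sites (52.4%), beside 849 of the 2831 sites of the list. The sites with a core belonged to *HAB1*, *AHG3*, *HAI2*, *ABI5*, *ABF3*, *NCED9*, *CYP707A4* and *RD22*. Some of these loci gave more than 1 site, and both *CYP707A4* sites were counted although they share cores. The *HAI2* site closest to the start codon had 4 cores, including the direct repeat ACGTGACGTG, whose cores lay 51 and 46 bp from the maximum. In *HAB1* a core lay 5 bp and in *ABF3* 15 bp from the maximum. The G-box CACGTG, which contains the core on both strands, was found at 4 sites (19.0%, against 13.1% of all sites), namely the *ABI5* site, the *HAI2* site of 6.81 and both *CYP707A4* sites, whose windows overlap and share 1 of them. The GC content of the windows had a median of 39.8% for the 21 sites and 40.8% for all sites.

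Beyond the 40 loci, 45 further genes of ABA transport, metabolism, signalling and response were examined by the same rule. Of these, 13 had a site (28.9%, beside 14.0% of all protein-coding genes), 6 with a score of at least 5.6 (13.3%, beside 4.47%). When a site counted only for its nearest coding gene, 11 of the 45 had one (24.4%, beside 8.21%). The highest score was that of *RAB18*, a dehydrin gene induced by ABA, with 14.22 at 655 bp upstream of the start codon. The ABA exporter gene *ABCG25* had 3 sites, scoring 12.59, 7.75 and 3.33, and the importer gene *ABCG40* had 2, scoring 6.81 and 4.43. The study lists scores of 6.81 and 4.43 at a neighbouring lectin receptor kinase gene and does not list *ABCG40*. *EEL*, which encodes a bZIP factor related to ABI5, had a site of 9.55 in an intron, and *AFP4*, which encodes a protein of the family that binds ABI5, had a site of 8.14 at 937 bp upstream. *SnRK2.9* had a site of 7.0. The other SnRK2 genes, the receptor genes *PYL10* to *PYL13* and the synthesis genes *NCED2*, *AAO3*, *ABA3* and *ABA4* had none. *RD29A* had 3 sites between 3.4 and 4.69, and *NPF4.6*, *RD26*, *EM1*, *HB12*, *KAT1* and *RBOHD* had sites of at most 4.29.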

How the data were processed

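The authors mapped the reads of 2 FUL-GFP ChIP and 2 input libraries to TAIR9 with SOAPv2, kept unique matches with at most 2 mismatches and no gaps, removed plastid and mitochondrial reads and called sites with CSAR. The study limited its target set by a false discovery rate. The version and other settings of CSAR are not given in the sources used here. The deposited score of each site was taken to be the authors' enrichment over the input, a mean of both replicates as noted for their target list. No value is given for either replicate. The depth per library is unknown, so no interval or test was computed.

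TAIR10.1 has the nuclear sequence of TAIR9, and none of the 2831 sites ran past a chromosome end in it. Windows were set from the outermost start and stop codons over all transcripts. Nearest coding genes were taken by distance to the coding region. CArG boxes, also with at most 1 mismatch, and the sequences ACGTG and CACGTG were searched 100 bp to each side of the maximum. All 40 loci are named, with full positions for those with a site of at least 5.6. The loci, the further genes and the limit of 5.6 were chosen with earlier results of these data known. Alternatives concerned score, window, gene ends, assignment and motif. The upstream part of the window and the search for exact CArG boxes were tested with planted positions and boxes. The other steps were not tested in this way. Python 3.11.15, numpy 2.4.6 and matplotlib 3.10.9 were used.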

Additional observations from a re-analysis of the deposited data

How the results depend on the processing

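The number of ABA loci with a site, 15 of 40, fell to 9 when a score of at least the median of the list (4.43) or of at least 5.6 was required, and to 8 at the upper quartile (6.81), while the share of all protein-coding genes fell from 14.0% to 7.97%, 4.47% and 3.94%. It was 13 with 2000 bp upstream (11.9% of all protein-coding genes), 16 with transcript ends (15.0%), 15 with any base of the site in the window (14.3%) and 13 with the nearest protein-coding gene only (8.21%). With 1000 bp upstream and no downstream part it was 10 (7.48%). With 5000 bp upstream, an alternative chosen after seeing the data, it stayed at 15 while the share of all protein-coding genes rose to 18.1%, so that the difference from the background became smaller. By step, each of these score limits left 0 synthesis genes, 1 breakdown gene and 0 for *RD22*, and the upper quartile left 1 receptor gene. The window of 1000 bp left 1 receptor gene and 2 phosphatase genes. The transcription factor counts stayed within 1.5 times under each alternative. The kinase count was 0 in the main setting, which stricter limits could not lower, and it was also 0 in the wider windows. With 1 mismatch the CArG box was found at 6 sites instead of 0, and the ABRE core at 5 sites within 50 bp (23.8%, beside 16.6% of all sites) and as CACGTG at 4 (19.0%, beside 13.1%), instead of 11 (52.4%). The median of the highest scores, 6.81, was 8.20 with the limit of 5.6, 6.33 with transcript ends and 6.81 with the nearest gene. For these changes the stricter limits themselves admit fewer sites. No paired analysis was possible because the list holds 1 score per site and none per replicate, and for the same reason no replicate could be left out. Each step has at most 10 genes, so that 1 site moves its share strongly.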
